A study of Mus musculus with 12 samples.

Results

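The genes described here are 31 genes of sterol and fatty acid synthesis, taken by symbol from the rows of both deposited tables. All 31 were found among the 20844 genes that both tables list. They are 18 genes of the sterol branch (Acat2, Hmgcs1, Mvk, Pmvk, Mvd, Idi1, Fdps, Fdft1, Sqle, Lss, Cyp51, Tm7sf2, Msmo1, Nsdhl, Hsd17b7, Sc5d, Dhcr7 and Stard4), 9 genes of the fatty acid branch (Acly, Acss2, Acaca, Fasn, Elovl6, Scd1, Scd2, Fads1 and Fads2) and 4 regulators (Srebf1, Srebf2, Scap and Insig1). All 31 passed the filter on low counts in each comparison; the lowest count of any member in any library was 69 reads.

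Mouse embryonic fibroblasts, primary cells taken at embryonic day 13.5 to 14.5 and grown in pyruvate-free medium with serum, gave 4 groups of 3 RNA libraries. Every culture received adenovirus at a multiplicity of infection of 500 and was collected at day 4. Fibroblasts homozygous for LSL-Nrf2D29H were given Cre, which switches on the D29H form of NRF2 (the D29H libraries), or empty virus, which leaves Nrf2 functionally knocked out (the labelled-knockout libraries). Fibroblasts homozygous for CA-Keap1R554Q were given Cre, which switches on the R554Q form of KEAP1 (the R554Q libraries), or empty virus, which leaves Keap1 functionally wild type (the Keap1 wild-type libraries). No wild-type culture with Cre is among the groups, so within each allele the exposure to Cre and the switch of the allele cannot be told apart. Between the alleles, the genotype of the embryos, the cultures and the deposited table cannot be told apart. The labels do not say whether the 3 samples of a group came from separate embryos or cultures, so p-values measure the spread between these samples, which may be technical.

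Both branches start from acetyl-CoA. The sterol branch joins acetyl-CoA units into mevalonate, turns mevalonate into isoprenoids and squalene, closes squalene into the sterol ring and trims the ring to cholesterol; the fatty acid branch makes malonyl-CoA, builds palmitate from it, then elongates and desaturates the chain. SREBP2 (Srebf2) mainly drives the sterol genes and SREBP1 (Srebf1) mainly the fatty acid genes; SCAP carries both from the endoplasmic reticulum to the Golgi when sterols are low, and INSIG1 holds SCAP back when sterols are high. NRF2 is a transcription factor for antioxidant and detoxifying enzymes, and KEAP1 marks it for degradation.

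The libraries held 14963004 to 23818477 counted reads, and the labelled-knockout replicate 3 was the shallowest. The NRF2 readout genes followed the group labels: Nqo1, a quinone reductase, was at 134, 108 and 116 CPM (reads relative to library size, on 1 TMM scale for all 12 libraries) in the D29H libraries, 10.8, 8.01 and 7.65 in the labelled-knockout, 369.8, 306 and 378 in the R554Q and 33.0, 33.0 and 33.4 in the Keap1 wild-type libraries. All 6 readout genes tested were higher after Cre in both alleles. Nfe2l2, the gene of NRF2, was counted at 46.5, 40.2 and 41.2 CPM in the labelled-knockout libraries and 42.8, 44.2 and 41.7 in the Keap1 wild-type libraries, so reads of the gene as a whole did not mark the knockout; which part of the gene they came from cannot be read from a gene-level count. The 8 fibroblast markers summed to 19392 to 25883 CPM in every library, and the 4 adipocyte markers with enough reads to be tested (Fabp4, Cebpa, Pparg and Lpl) had 64 to 520 reads in a library, whereas Plin1 and Cidec, which coat lipid droplets, had at most 4.

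At the level of the whole list, few of the 31 genes moved with either allele switch, and more of them differed between the Nrf2-allele and the Keap1-allele cultures. After Cre in the Nrf2-allele cultures 1 member fell and none rose, where 1.28% of all genes fell and 3.47% rose. After Cre in the Keap1-allele cultures 2 members fell and none rose, where 2.40% of all genes fell and 3.77% rose. Between the empty-virus cultures, 19 of 31 members were higher in the labelled-knockout than in the Keap1 wild-type libraries and none was lower, beside 9.58% and 10.1% of all genes. A call here is an adjusted p under 0.05 in the quasi-likelihood test of edgeR, with Benjamini-Hochberg adjustment over all genes tested. In bulk RNA, fewer cells that express a gene and less RNA per cell cannot be told apart.

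**Figure D1:**
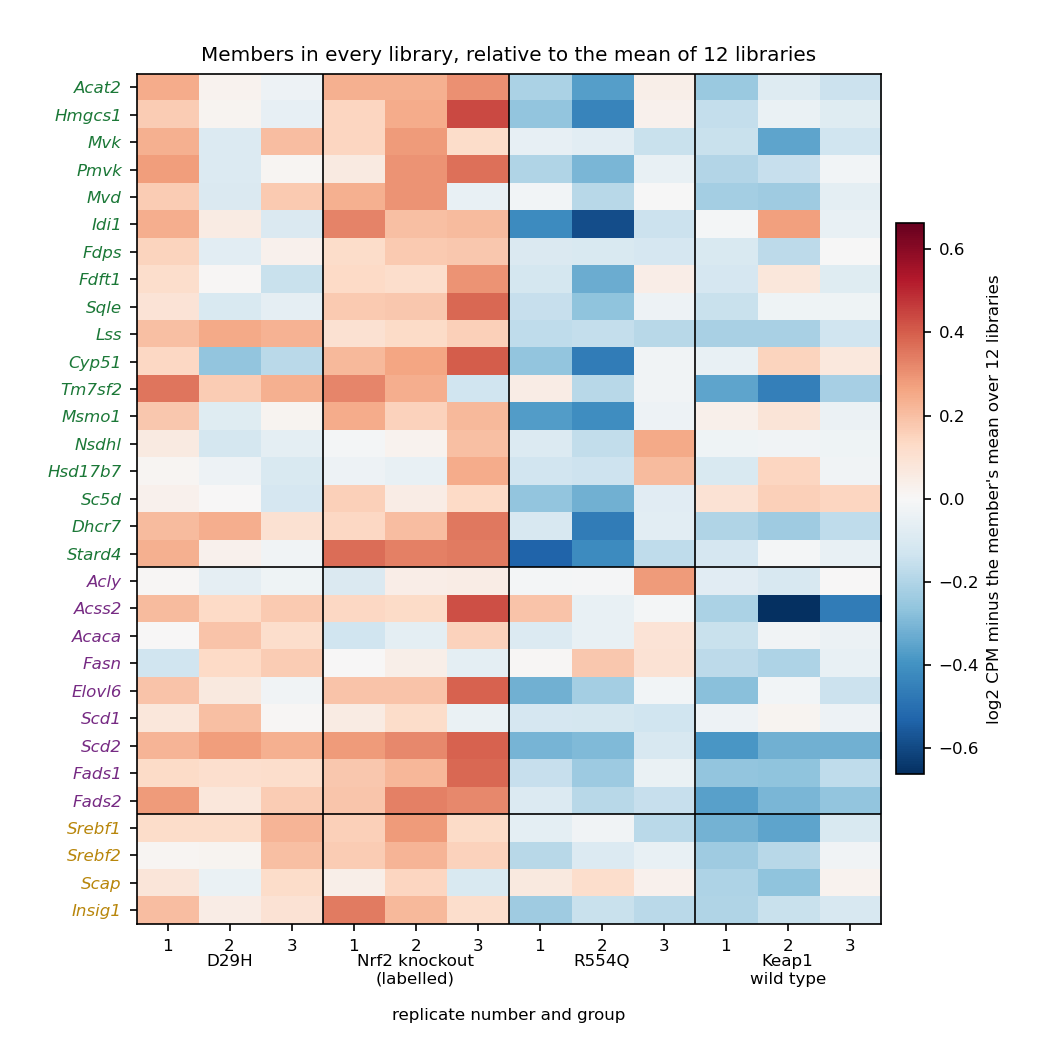
Heat map of the 31 members (rows, in pathway order, with the sterol branch, the fatty acid branch and the regulators separated by lines) in the 12 libraries (columns, replicates 1 to 3 of each group); the colour is log2 CPM minus that member's mean over the 12 libraries. The labelled-knockout columns are mostly red, D29H replicates 2 and 3 are pale or blue in many sterol rows, and 8 members have all 6 Nrf2-allele libraries above all 6 Keap1-allele libraries (6.44% of all genes do).

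Levels between genes were compared on the deposited FPKM, which are per gene length. Fdps, which makes the isoprenoid farnesyl diphosphate, had the highest mean over the 12 libraries, 121.6 FPKM (range 103.9 to 140.2). Scd2, a stearoyl-CoA desaturase, followed with 108.6 FPKM (78.3 to 141.7), and Acly, which cleaves citrate to acetyl-CoA, was the third with 59.3 FPKM (53.1 to 71.1). The ranges of Fdps and Scd2 overlap, whereas neither reaches down to that of Acly. The lowest member was Acss2, which makes acetyl-CoA from acetate, at 1.57 FPKM (0.94 to 2.11). Acaca, acetyl-CoA carboxylase, was at 6.83 FPKM (5.93 to 8.13). The last enzyme of cholesterol synthesis measured here, Dhcr7, was at 7.44 FPKM (5.31 to 9.52), and the ranges of Acaca, Dhcr7, Elovl6 (8.06), Stard4 (8.39), Lss (8.75) and Tm7sf2 (8.97 FPKM) all overlap. Of the regulators, Insig1 was at 47.9 FPKM, Srebf2 at 42.2, Srebf1 at 30.1 and Scap at 20.8. Together the 31 genes took 0.404% to 0.431% of all counted reads in the 6 Nrf2-allele libraries and 0.314% to 0.358% in the 6 Keap1-allele libraries.

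The first comparison asks what changes in these genes when cells without functional NRF2 gain NRF2 D29H. Of 18 sterol genes 1 fell, Cyp51, and none rose; none of the 9 fatty acid genes and none of the 4 regulators passed the threshold in either direction. Over all 14370 genes tested 3.47% were called higher and 1.28% lower, so 1 lower call among 31 is near the background. The median log2 fold change was -0.15 over the sterol genes, -0.06 over the fatty acid genes and -0.07 over the regulators, beside 0.00 over all genes. Leaving out 1 library moved the sterol median to between -0.21 (without D29H replicate 1) and -0.10 (without D29H replicate 2), and the fatty acid median to between -0.11 (without labelled-knockout replicate 1) and 0.0026 (without labelled-knockout replicate 3). On the sign alone, 16 of 18 sterol genes were below 0, of which Cyp51 was called. In the same comparison 13 of 15 other fatty acid genes, described below, were also below 0, with a median of -0.17. A lean below 0 was therefore not particular to the sterol genes.

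Cyp51, the demethylase that acts on lanosterol, was at 164, 124 and 132 CPM in the D29H, 173, 179 and 197 in the labelled-knockout, 124, 108 and 147 in the R554Q and 144, 165 and 157 in the Keap1 wild-type libraries. Each D29H library lay below each labelled-knockout library, though D29H replicate 1 stood closer to the labelled knockout than the other two (log2 fold change -0.39, SE 0.11, adjusted p = 0.0473 in edgeR). The call was lost on leaving out D29H replicate 2 (adjusted p = 0.283 in edgeR) or 3 (0.286) or labelled-knockout replicate 2 (0.111) or 3 (0.0838), and with offsets that remove each library's trend in GC content and in gene length (0.0654). In these fits the log2 fold change was -0.30, -0.34, -0.41, -0.33 and -0.34, in that order. The authors' deposited table lists Cyp51 at -0.35 on the log2 scale with an adjusted p of 0.0211. In the R554Q comparison the same gene had log2 fold change -0.29, SE 0.10, adjusted p = 0.0853, which did not pass.

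Not called with all 6 libraries, but with separate groups, were among others Sqle and Stard4. Sqle, squalene epoxidase, was at 108, 94.8 and 97.3 CPM in the D29H, 115, 115 and 132 in the labelled-knockout, 91.3, 84.3 and 99.1 in the R554Q and 91.8, 99.5 and 99.6 in the Keap1 wild-type libraries. Its D29H values were all under its labelled-knockout values (log2 fold change -0.27, SE 0.10, adjusted p = 0.119 in edgeR). Stard4, a carrier that moves cholesterol between membranes, was at 49.3, 42.8 and 41.3 CPM in the D29H, 54.3, 52.8 and 53.2 in the labelled-knockout, 29.1, 31.4 and 37.3 in the R554Q and 38.9, 41.5 and 40.5 in the Keap1 wild-type libraries, again with no overlap between D29H and labelled knockout (log2 fold change -0.27, SE 0.10, adjusted p = 0.114 in edgeR). Without D29H replicate 1, the library nearest to the labelled knockout for both genes, edgeR called Sqle (log2 fold change -0.33, adjusted p = 0.0379) and Stard4 (-0.35, adjusted p = 0.0217) as well as Cyp51. That fit called 6.83% of all genes lower, against 1.28% with all 6 libraries, so calls became more frequent over all genes as well. Without overlap between the 3 and 3 libraries there were 8 members with D29H below (Fdft1, Sqle, Cyp51, Sc5d, Stard4, Elovl6, Scd2 and Fads1), against 12.9% of all genes, and 1 with D29H above (Lss), against 12.7%.

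Hmgcs1, which condenses acetyl-CoA units into HMG-CoA at the entry of the pathway, was at 156, 141 and 134 CPM in the D29H, 153, 164 and 188 in the labelled-knockout, 116, 102 and 142 in the R554Q and 124, 135 and 131 in the Keap1 wild-type libraries. D29H replicate 1 lay above labelled-knockout replicate 1, so those groups overlapped (log2 fold change -0.24, SE 0.11, adjusted p = 0.193 in edgeR). For the fatty acid branch the D29H fold changes ran from -0.18 (Elovl6) to 0.11 (Acaca) on the log2 scale, each with an SE of 0.10 to 0.15. Among the regulators they ran from -0.11 (Insig1) to 0.02 (Scap).

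**Figure D2:**
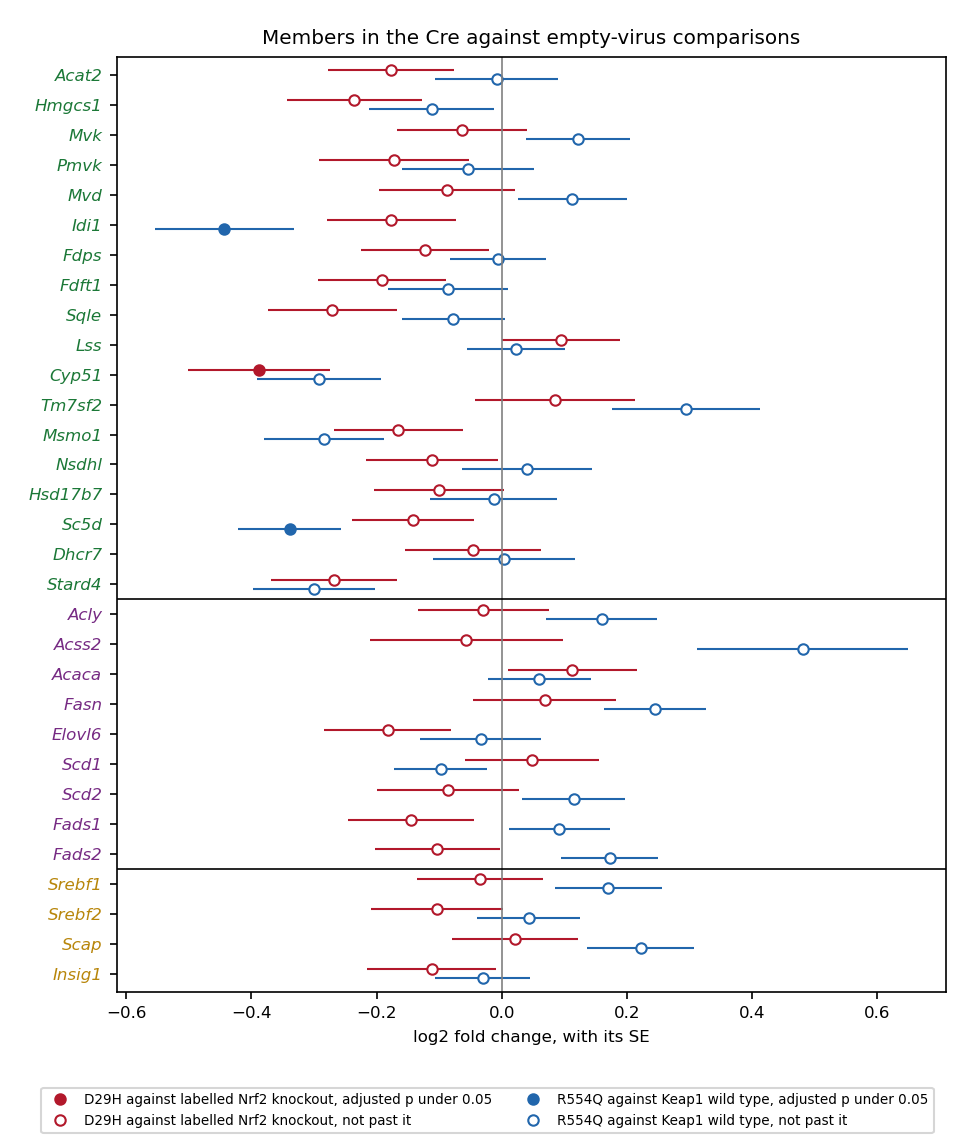
Log2 fold change (x axis) with its SE (bars) of each member (rows, sterol branch, fatty acid branch and regulators from top to bottom) for D29H against labelled knockout (red) and R554Q against Keap1 wild type (blue); filled points passed an adjusted p of 0.05. Cyp51 is the filled red point at -0.39, and Idi1 at -0.44 and Sc5d at -0.34 are the filled blue points.

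The second comparison asks the same of cells whose KEAP1 turns from wild type to R554Q. Of the sterol genes 2 of 18 fell, Idi1 and Sc5d, and none rose; no fatty acid gene and no regulator passed. Over all 14128 genes tested 3.77% were called higher and 2.40% lower. The medians were -0.03 for the sterol genes, 0.11 for the fatty acid genes and 0.11 for the regulators, against 0.00 for all genes; 7 of 9 fatty acid genes and 6 of 18 sterol genes were above 0. The sterol median was -0.13 without R554Q replicate 3, -0.08 without Keap1 wild-type replicate 1 and 0.0051 without R554Q replicate 2, and the fatty acid median was 0.05 without R554Q replicate 3 and 0.05 with the GC and length offsets. The regulator median was 0.015 with these offsets, 0.07 without Keap1 wild-type replicate 1 and 0.18 without Keap1 wild-type replicate 3.

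Idi1, the isomerase that makes dimethylallyl diphosphate, was at 61.9, 54.3 and 49.1 CPM in the D29H, 65.8, 60.1 and 60.6 in the labelled-knockout, 39.3, 34.9 and 47.4 in the R554Q and 52.0, 63.2 and 50.7 in the Keap1 wild-type libraries. All 3 R554Q libraries lay below all 3 Keap1 wild-type libraries, while the 6 Nrf2-allele libraries lay near the Keap1 wild-type level (log2 fold change -0.44, SE 0.11, adjusted p = 0.0260 in edgeR). Sc5d, the sterol desaturase just before Dhcr7, was at 96.7, 95.2 and 87.9 CPM in the D29H, 106, 98.3 and 104 in the labelled-knockout, 79.2, 76.1 and 90.0 in the R554Q and 101, 106 and 105 in the Keap1 wild-type libraries. The R554Q libraries again formed the low group, with R554Q replicate 3 the highest of them (log2 fold change -0.34, SE 0.08, adjusted p = 0.0228 in edgeR).

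Both calls changed with the libraries used and with the GC offsets. In edgeR, Idi1 kept its call in 3 of 6 fits that left out 1 library and Sc5d in 1 of 6. Without R554Q replicate 1 the adjusted p was 0.132 for Idi1 and 0.115 for Sc5d, without R554Q replicate 2 it was 0.102 and 0.0779, and without Keap1 wild-type replicate 2 it was 0.166 and 0.106; Sc5d was also lost without Keap1 wild-type replicate 1 (0.0666) or 3 (0.0835). In the fits that lost the call, the log2 fold change of Idi1 was -0.42, -0.35 and -0.33, beside -0.44 with all 6 libraries. That of Sc5d was -0.29 to -0.36, beside -0.34. Leaving out R554Q replicate 3, whose sterol median stood above those of the other R554Q libraries, gave 6 lower members in edgeR: Hmgcs1 (log2 fold change -0.24), Cyp51 (-0.41), Msmo1 (-0.41) and Stard4 (-0.40) beside Idi1 and Sc5d. The same fit called 3 higher members, Acss2 (0.51), Fasn (0.25) and Scap (0.25). Over all genes it called 9.33% lower and 10.6% higher, against 2.40% and 3.77% with all 6 libraries. The authors' deposited table lists Idi1 at -0.38 (adjusted p = 0.00809), Sc5d at -0.31 (0.00397) and Fasn at 0.23 (0.0284) on the log2 scale, and no other member under 0.05.

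Across the 31 members the R554Q log2 fold change rose with the GC content of the transcripts (Pearson r = 0.65, Spearman rho = 0.65), against 0.35 and 0.45 over all 14060 genes with a GC value. These points share the same 6 libraries and so are not independent. The sterol genes are the less GC-rich branch, with a median of 49.6% against 52.7% for the fatty acid genes, 56.9% for the regulators and 50.8% for all genes tested; Idi1 has the lowest GC content of the 31, 40.6%. With the GC and length offsets the relation across members was weaker (r = 0.23, rho = 0.20), Idi1 moved to -0.28 (adjusted p = 0.0697 in edgeR), Sc5d to -0.21 (0.0674), Fasn from 0.24 to -0.01 and Srebf1 from 0.17 to -0.05. No member was called with the offsets in either allele switch. The relation was not particular to R554Q. For D29H against labelled knockout the members gave r = 0.47 and rho = 0.49, against 0.09 and 0.12 over all genes. With the offsets the members gave 0.13 and 0.07 there. The part of GC content in these fold changes was not tested beyond these values.

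**Figure D3:**
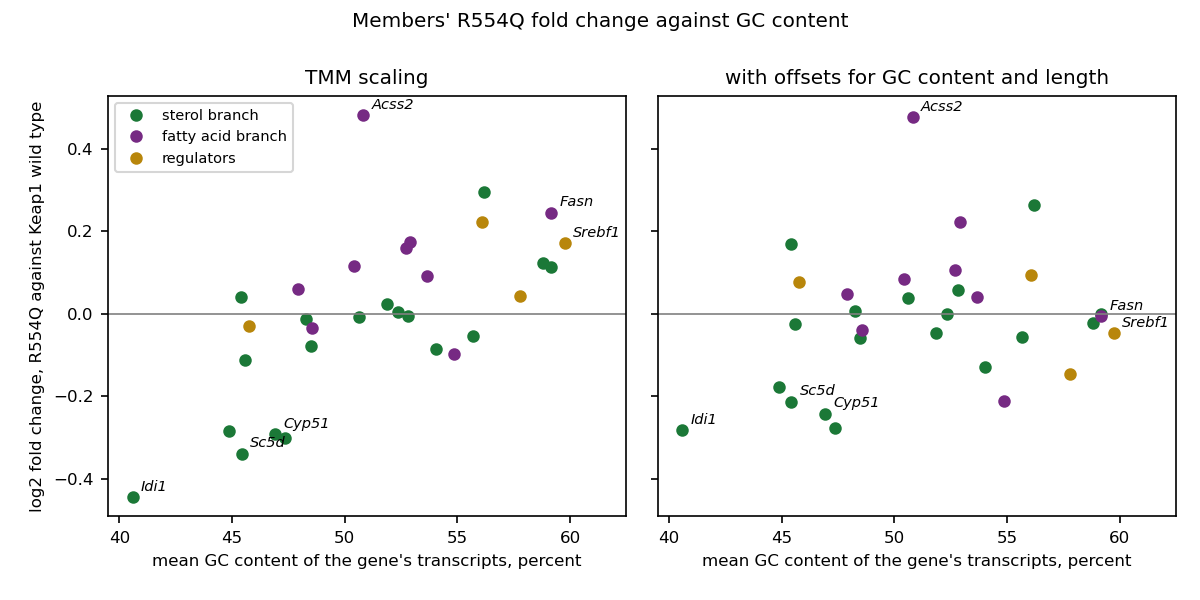
Log2 fold change of R554Q against Keap1 wild type (y axis) against the mean GC content of a gene's transcripts in percent (x axis), 1 point per member, coloured by branch, with TMM scaling (left) and with the GC and length offsets (right). On the left the points climb from Idi1 at 40.6% GC and -0.44 to Fasn at 0.24; on the right Idi1 is at -0.28 and Fasn at -0.01.

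In the fatty acid branch, Acss2 was at 6.41, 6.06 and 6.24 CPM in the D29H, 6.09, 6.04 and 7.46 in the labelled-knockout, 6.31, 5.35 and 5.49 in the R554Q and 4.79, 3.5 and 4.02 in the Keap1 wild-type libraries. The R554Q libraries lay above the Keap1 wild-type libraries (log2 fold change 0.48, SE 0.17, adjusted p = 0.0926 in edgeR). Its exons overlap those of Gss and Ggt7, whose counts are 985% and 305% of its own, and whether strand was used in the counting is not given in the sources used here, so its counts may hold reads of these genes. Gss, a glutathione synthesis gene, was at 0.25 on the log2 scale (SE 0.09, adjusted p = 0.0961 by edgeR) in that comparison.

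Fasn, fatty acid synthase, was at 374, 450.2 and 462 CPM in the D29H, 411, 421 and 392 in the labelled-knockout, 412, 465 and 439 in the R554Q and 363, 356 and 396 in the Keap1 wild-type libraries. R554Q and Keap1 wild type did not overlap (log2 fold change 0.24, SE 0.08, adjusted p = 0.0810 in edgeR; DESeq2 gave an adjusted p of 0.034). Acly was at 264, 251 and 257 CPM in the D29H, 245, 270.2 and 271 in the labelled-knockout, 259.6, 261 and 318 in the R554Q and 248, 243 and 262 in the Keap1 wild-type libraries, with the highest value in R554Q replicate 3. Acaca was at 64.9, 73.7 and 70.2 CPM in the D29H, 59.0, 62.0 and 72.1 in the labelled-knockout, 60.7, 62.6 and 68.9 in the R554Q and 58.4, 63.7 and 63.0 in the Keap1 wild-type libraries, and its groups overlapped in every comparison. Scd1, the stearoyl-CoA desaturase best known from liver and fat, was at 262, 286 and 250.4 CPM in the D29H, 259, 271 and 241 in the labelled-knockout, 230.1, 229 and 227 in the R554Q and 243, 252 and 243 in the Keap1 wild-type libraries, with the R554Q libraries just under the Keap1 wild-type libraries (log2 fold change -0.10, SE 0.07, adjusted p = 0.451 in edgeR).

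Without overlap between the 3 and 3 libraries, 6 members had R554Q above (Tm7sf2, Acss2, Fasn, Scd2, Fads2 and Scap) and 4 had R554Q below (Idi1, Sc5d, Stard4 and Scd1), beside 13.3% and 14.2% of all genes. Tm7sf2 shares exon bases with Vps51 on the same strand, so its counts may hold reads of Vps51. Vps51 was itself called higher in R554Q (log2 fold change 0.37, SE 0.11, adjusted p = 0.0495 in edgeR). Scap, the escort protein of the SREBPs, was at 92.7, 84.9 and 95.2 CPM in the D29H, 90.1, 96.6 and 81.5 in the labelled-knockout, 91.7, 95 and 89.2 in the R554Q and 76.1, 72.7 and 88.9 in the Keap1 wild-type libraries, and it passed in none of the comparisons with all libraries; for R554Q it had the larger of its allele-switch values (log2 fold change 0.22, SE 0.09, adjusted p = 0.121 in edgeR).

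**Figure D4:**
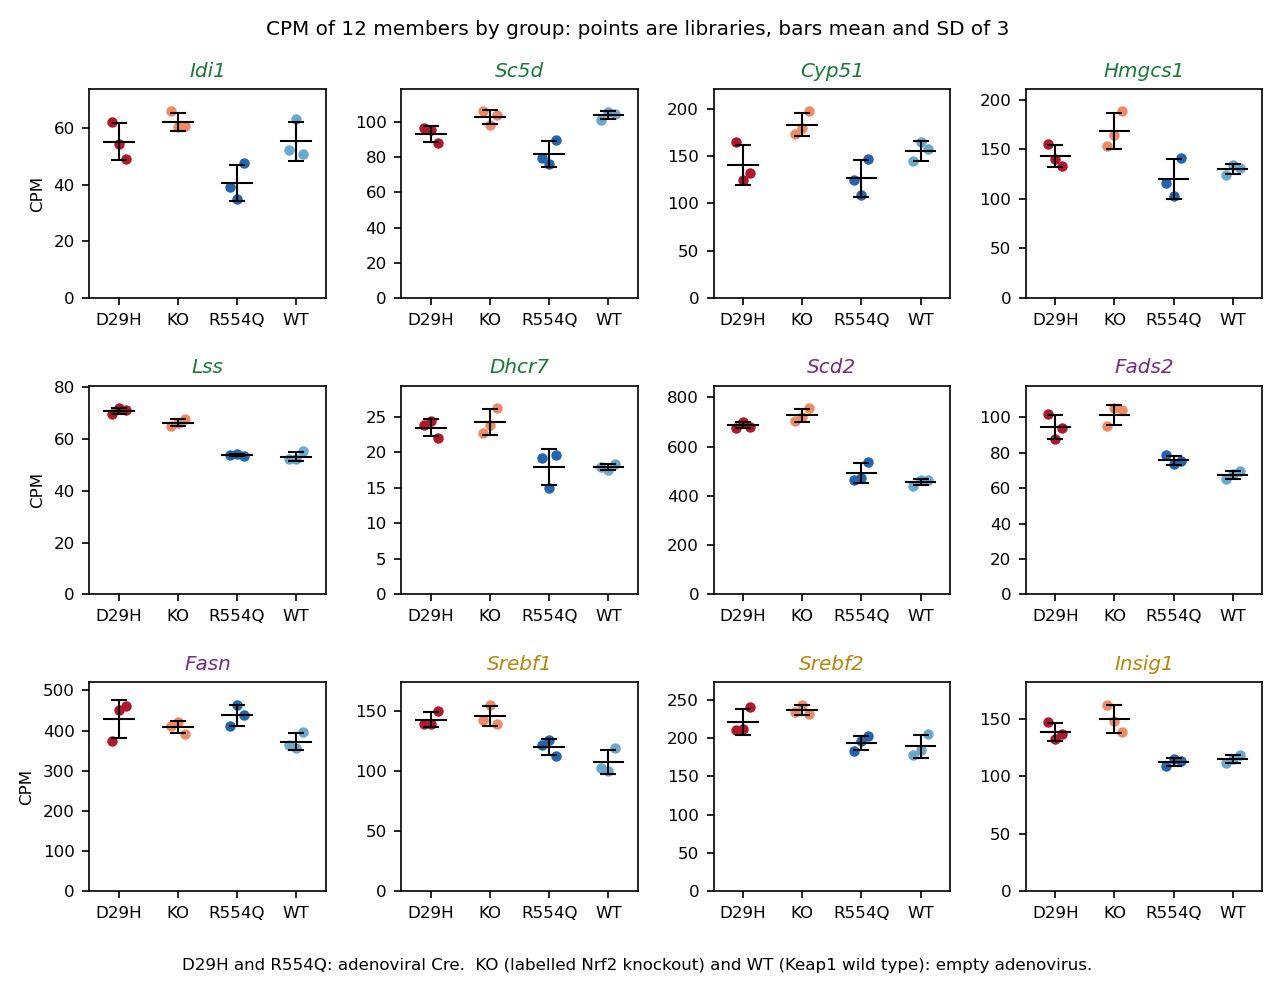
CPM (y axis, from 0) of 12 members in the D29H, labelled-knockout (KO), R554Q and Keap1 wild-type (WT) groups (x axis); points are libraries, and bars give the mean and SD of 3. Idi1 and Sc5d are lowest in R554Q, while Lss, Dhcr7, Scd2, Fads2, Srebf1, Srebf2 and Insig1 are higher in both Nrf2-allele groups than in both Keap1-allele groups.

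The difference between the allele switches (the D29H effect minus the R554Q effect) was tested in 1 fit of all 12 libraries. It was called for 4 of 14794 genes (0.0270%) and for none of the 31 members; 2 members had an unadjusted p under 0.05, and DESeq2, which called 71 genes, also called no member. These were Acss2 (log2 fold change -0.53, SE 0.21, adjusted p = 0.371 in edgeR) and Fads2 (log2 fold change -0.27, SE 0.12, adjusted p = 0.403 in edgeR). For the genes called in 1 switch, the differences were -0.09 for Cyp51 (SE 0.16), 0.27 for Idi1 (SE 0.16) and 0.21 for Sc5d (SE 0.12). So the calls of Idi1 and Sc5d in the Keap1-allele cultures and of Cyp51 in the Nrf2-allele cultures were not shown to be particular to either allele.

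Between the empty-virus groups the picture was different. Relative to Keap1 wild type, the labelled-knockout libraries had 11 of 18 sterol genes, 5 of 9 fatty acid genes and 3 of 4 regulators higher, and none of the 31 lower, while over all 14794 genes 9.58% were higher and 10.1% lower. The medians were 0.32 for the sterol genes, 0.40 for the fatty acid genes and 0.35 for the regulators, against -0.01 for all genes. All members but Sc5d (-0.02) had a value above 0. Since the embryos, the cultures and the table differ along with the allele, none of these differences can be assigned to the loss of NRF2.

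Among the regulators, Srebf1 was at 139, 139 and 149.7 CPM in the D29H, 143, 155 and 139 in the labelled-knockout, 122, 126 and 113 in the R554Q and 103, 100.3 and 119 in the Keap1 wild-type libraries. Every Nrf2-allele library lay above every Keap1-allele library (log2 fold change 0.44, SE 0.09, adjusted p = 0.000852 in edgeR between the empty-virus groups). Srebf1 overlaps exons of Rai1, whose counts are 108% of its own; Rai1 had 0.33 (SE 0.12, adjusted p = 0.0550 in edgeR) in the same comparison. Srebf2 was at 211, 212 and 240.2 CPM in the D29H, 235, 244 and 232 in the labelled-knockout, 184, 196 and 202 in the R554Q and 178, 184 and 206 in the Keap1 wild-type libraries. It showed the same order (log2 fold change 0.32, SE 0.09, adjusted p = 0.0104 in edgeR). Insig1, itself a target of the SREBPs, was at 147, 132 and 137 CPM in the D29H, 162, 148 and 138 in the labelled-knockout, 108, 115 and 113 in the R554Q and 111, 115 and 119 in the Keap1 wild-type libraries. It also had no overlap between the 6 and 6 libraries (log2 fold change 0.38, SE 0.08, adjusted p = 0.00228 in edgeR).

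In the upper part of the sterol branch, Acat2, which makes acetoacetyl-CoA, was at 70.5, 60.4 and 58.1 CPM in the D29H, 69.9, 70.1 and 73.4 in the labelled-knockout, 51.4, 46.1 and 61.1 in the R554Q and 50.2, 56.0 and 53.9 in the Keap1 wild-type libraries. The mevalonate kinase gene Mvk was at 79.1, 63.3 and 77.5 CPM in the D29H, 74.3, 81.8 and 73.1 in the labelled-knockout, 64.7, 64.1 and 60.8 in the R554Q and 60.8, 52.8 and 61.4 in the Keap1 wild-type libraries. Pmvk, which adds the second phosphate, was at 24.7, 19.2 and 20.6 CPM in the D29H, 21.3, 25.1 and 26.3 in the labelled-knockout, 17.8, 16.5 and 19.8 in the R554Q and 17.9, 18.4 and 20.1 in the Keap1 wild-type libraries. For these genes the 3 labelled-knockout libraries were all above the 3 Keap1 wild-type libraries (log2 fold change 0.41, SE 0.10, adjusted p = 0.00469 for Acat2 in edgeR), with 0.39 for Mvk and 0.36 for Pmvk. Mvd, which decarboxylates the phosphorylated mevalonate, was at 56.1, 46.7 and 56.4 CPM in the D29H, 58.8, 61.5 and 48.3 in the labelled-knockout, 49.3, 44.1 and 49.9 in the R554Q and 42.8, 42.5 and 47.8 in the Keap1 wild-type libraries. Fdps was at 166, 143 and 153 CPM in the D29H, 163, 169.6 and 170.3 in the labelled-knockout, 140.4, 140.2 and 139 in the R554Q and 140.0, 133 and 149.8 in the Keap1 wild-type libraries. Mvd was higher by 0.35 and Fdps by 0.25 on the log2 scale, and Hmgcs1 by 0.37. Idi1, at 0.17 (adjusted p = 0.320 in edgeR), was the gene of this stretch whose groups overlapped.

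In the lower part of the branch, Lss, lanosterol synthase, which closes the ring, was at 69.5, 71.9 and 71.0 CPM in the D29H, 64.9, 66.1 and 67.6 in the labelled-knockout, 53.8, 54.3 and 53.2 in the R554Q and 52.1, 52.1 and 55.2 in the Keap1 wild-type libraries. Its libraries varied little within a group, and the 6 Nrf2-allele libraries stood above the rest (log2 fold change 0.32, SE 0.08, adjusted p = 0.00464 in edgeR). Dhcr7, the last reductase before cholesterol, was at 23.9, 24.4 and 22.1 CPM in the D29H, 22.7, 23.8 and 26.2 in the labelled-knockout, 19.1, 15 and 19.6 in the R554Q and 17.9, 17.5 and 18.3 in the Keap1 wild-type libraries, with all 6 Nrf2-allele libraries above (log2 fold change 0.43, SE 0.11, adjusted p = 0.00607 in edgeR). Tm7sf2, a sterol reductase, was at 16.9, 14.8 and 15.5 CPM in the D29H, 16.5, 15.6 and 12 in the labelled-knockout, 13.6, 11.6 and 13 in the R554Q and 10.3, 9.63 and 11.3 in the Keap1 wild-type libraries. Its labelled-knockout libraries were above its Keap1 wild-type libraries (log2 fold change 0.51, SE 0.12, adjusted p = 0.00522 in edgeR), but it shares exon bases with Vps51 on the same strand, whose counts are 154% of its own; Vps51 had 0.14 (SE 0.11, adjusted p = 0.389 in edgeR). Sqle was higher by 0.31 and Stard4 by 0.41. The sterol genes that did not pass were Idi1, Fdft1, Cyp51, Msmo1, Nsdhl, Hsd17b7 and Sc5d, with log2 fold changes of -0.02 to 0.24; Fdft1, squalene synthase, shares exon bases with the far more abundant Ctsb.

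In the fatty acid branch, Scd2, the desaturase most active in brain and in development, was at 676, 699 and 681 CPM in the D29H, 703, 719 and 756 in the labelled-knockout, 466, 472 and 537 in the R554Q and 442, 462 and 464 in the Keap1 wild-type libraries. It had the largest log2 difference of the branch (log2 fold change 0.67, SE 0.09, adjusted p = 7.20e-06 in edgeR), 1.59-fold. Fads1, a desaturase of polyunsaturated fatty acids, was at 119, 117 and 118 CPM in the D29H, 123, 126 and 141 in the labelled-knockout, 97.6, 92.0 and 106 in the R554Q and 90.8, 90.5 and 96.8 in the Keap1 wild-type libraries. Fads2, the desaturase that acts before it, was at 102, 88 and 94.1 CPM in the D29H, 94.9, 105 and 104 in the labelled-knockout, 78.6, 73.6 and 75.2 in the R554Q and 65.1, 67.8 and 69.8 in the Keap1 wild-type libraries. Both had all 6 Nrf2-allele libraries above the 6 others, with 0.49 for Fads1 (adjusted p = 0.000182 in edgeR) and 0.59 for Fads2 (adjusted p = 1.89e-05 in edgeR). Elovl6, which elongates palmitate, was at 54.0, 49.5 and 46.7 CPM in the D29H, 54.1, 54.0 and 62.2 in the labelled-knockout, 38.0, 40.6 and 46.7 in the R554Q and 39.1, 46.8 and 43.0 in the Keap1 wild-type libraries, and was higher in labelled knockout (log2 fold change 0.40, SE 0.10, adjusted p = 0.00536 in edgeR). Acss2 was higher by 0.66, and the overlapping Gss was lower (log2 fold change -0.37, adjusted p = 0.00944 in edgeR). Acly, Acaca, Fasn and Scd1 had 0.06, 0.06, 0.13 and 0.06 and did not pass. Scd1 and Scd2, and Fads1 and Fads2, are neighbouring paralogs on chromosome 19, and how reads shared between such copies were counted is not given in the sources used here.

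Of the 19 calls, 13 were kept in each fit that left out 1 of the 12 libraries. The other 6 (Hmgcs1, Pmvk, Mvd, Fdps, Sqle and Srebf2) each lost the call in at least 1 of them. The number of members called was lowest, 13, without Keap1 wild-type replicate 1, and was 15 without labelled-knockout replicate 2 or 3, 16 without Keap1 wild-type replicate 2, 17 without labelled-knockout replicate 1 and 19 without any 1 of the others. With the GC and length offsets all 19 were called, beside 11.2% of all genes higher; in the fits without 1 library that share was 6.87% to 11%. The 8 macrophage markers moved with the same split: their CPM summed to 71.4 to 85.7 in the D29H, 75.3 to 85.4 in the labelled-knockout, 31.1 to 35.8 in the R554Q and 36.8 to 38.1 in the Keap1 wild-type libraries, and 8 of 8 were called higher in the labelled-knockout group than in Keap1 wild type. Csf1r, a defining receptor of macrophages, had 140 to 452 reads per library, and no macrophage marker was at 0. Of the fibroblast markers 4 of 8 were called higher (Col1a1, Col1a2, Col3a1 and Pdgfrb). Of the 4 adipocyte markers tested 2 were called higher, Cebpa (0.93 on the log2 scale) and Fabp4 (0.56), and 1 lower, Lpl (-0.59); the list summed to 38.6 to 47.5 CPM over the 12 libraries. The epithelial keratin Krt18 was lower (-0.92), the only call of 2 epithelial markers tested, and the endothelial markers tested, Kdr, Tek and Vwf, had adjusted p of 0.313 to 0.686 in edgeR. The part of these cell-type differences in the members' differences was not tested.

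**Figure D5:**
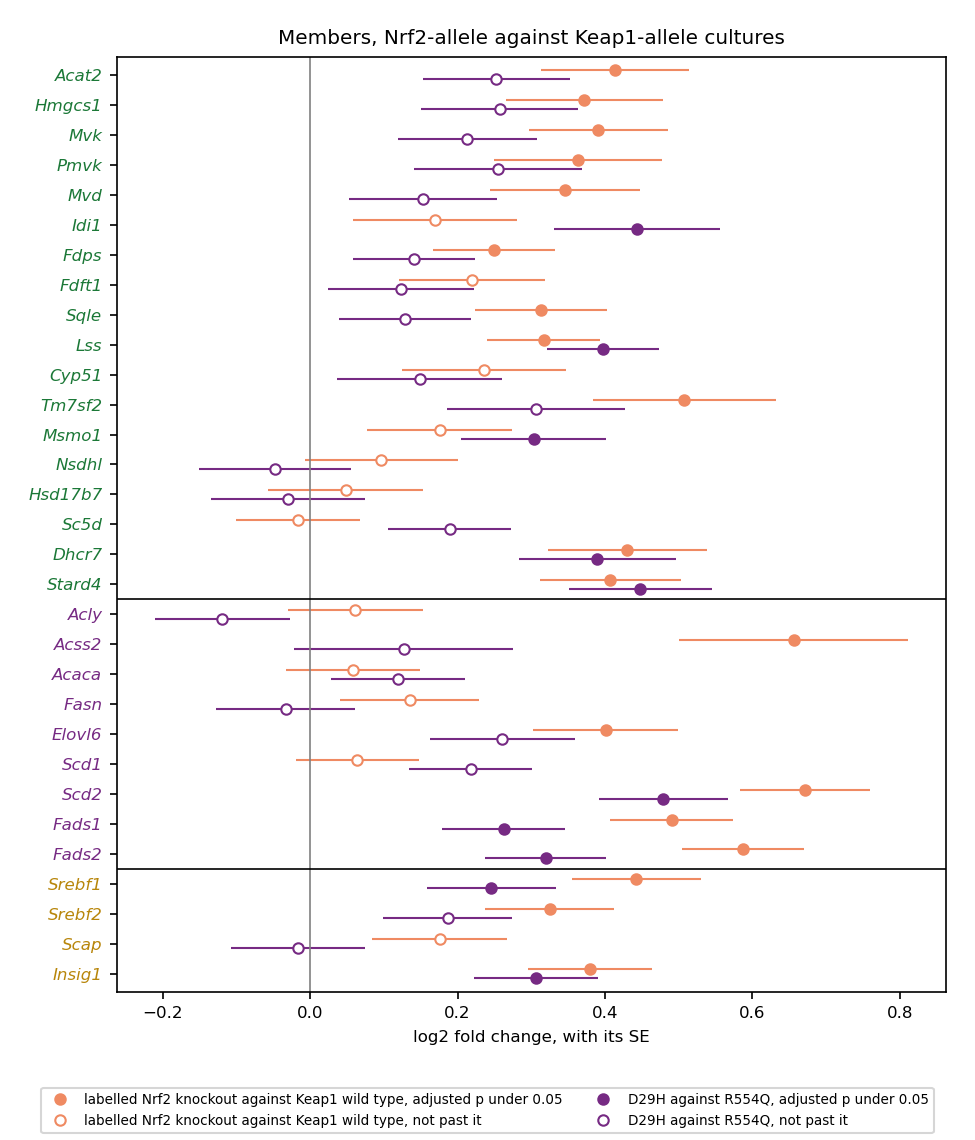
Log2 fold change (x axis) with its SE (bars) of each member (rows, by branch) between the Nrf2-allele and Keap1-allele cultures, for the empty-virus groups (labelled knockout against Keap1 wild type, orange) and for the Cre groups (D29H against R554Q, purple); filled points passed an adjusted p of 0.05. All orange points but Sc5d lie right of 0, 19 of them filled, and 10 purple points are filled.

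D29H against R554Q, a contrast added after the data were seen, compares the Cre-treated cultures. Here 5 of 18 sterol genes (Idi1, Lss, Msmo1, Dhcr7 and Stard4), 3 of 9 fatty acid genes (Scd2, Fads1 and Fads2) and 2 of 4 regulators (Srebf1 and Insig1) were higher in D29H, and none was lower; over all genes 13.1% were higher and 13.4% lower. The medians were 0.23, 0.22 and 0.22 for the sterol genes, the fatty acid genes and the regulators, beside 0.01 for all genes. Leaving out 1 library gave a sterol median of 0.15 (without D29H replicate 1) to 0.30 (without R554Q replicate 3). The fatty acid median ran from 0.17 (without D29H replicate 2) to 0.26 (without D29H replicate 3). The regulator median ran from 0.17 (without D29H replicate 3) to 0.24 (without D29H replicate 2). Scd2 had log2 fold change 0.48, SE 0.09, adjusted p = 0.000344, Stard4 log2 fold change 0.45, SE 0.10, adjusted p = 0.00160 and Lss log2 fold change 0.40, SE 0.08, adjusted p = 0.000525 in edgeR. With the GC and length offsets 17 members were higher, beside 14.7% of all genes.

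The contrasts of the empty-virus groups and of the Cre groups share no library. Both come from 1 fit and split the cultures by the same alleles, so they are not independent. Higher in both were 8 members (Lss, Dhcr7, Stard4, Scd2, Fads1, Fads2, Srebf1 and Insig1). A further 11 were called between the empty-virus groups only and 2 (Idi1 and Msmo1) between the Cre groups only, but the test of that difference is the one above, in which no member was called. Over all genes 9.58% were higher between the empty-virus groups and 13.1% between the Cre groups. The share of all genes higher in both, or in 1 only, was not counted, so these member counts have no background here. All 6 Nrf2-allele libraries lay above all 6 Keap1-allele libraries for 8 members (Lss, Dhcr7, Scd2, Fads1, Fads2, Srebf1, Srebf2 and Insig1), against 6.44% of all genes, and for none did they all lie below, against 6.85%. In the Cre groups the number of members called ran from 7 without D29H replicate 3, R554Q replicate 1 or R554Q replicate 2 to 13 without labelled-knockout replicate 3 or R554Q replicate 3, beside 8.86% to 14.3% of all genes higher in the fits without 1 library. Srebf1 lost its call in 7 of 12 such fits, without any 1 of the D29H libraries, R554Q replicate 1 or 3, labelled-knockout replicate 2 or Keap1 wild-type replicate 1 (adjusted p of 0.0503 to 0.156 in edgeR). Msmo1 lost it without D29H replicate 1 or 3 or R554Q replicate 1 or 2 (0.0564 to 0.121), Fads1 without D29H replicate 3 or R554Q replicate 1 or 2 (0.0633 to 0.10) and Dhcr7 without R554Q replicate 2 (0.0696). The 8 macrophage markers were all higher in D29H than in R554Q as well. Of the 8 fibroblast markers 4 were higher (Col1a1, Col1a2, Col3a1 and Pdgfrb, 0.30 to 0.93 on the log2 scale) and Vim was lower (-0.30). Of the 4 adipocyte markers tested Fabp4 was higher (0.51) and Pparg (-0.94) and Lpl (-0.36) were lower, and Krt18 was lower (-1.23). The part of these cell types in the members' values was not tested.

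Set side by side, the branches had medians that differed by at most 0.15 on the log2 scale in these comparisons. The sterol median minus the fatty acid median was -0.10 for D29H against labelled knockout, -0.15 for R554Q against Keap1 wild type, -0.09 between the empty-virus groups and 0.02 between the Cre groups. With the GC and length offsets these were -0.02, -0.08, -0.12 and -0.02. Leaving out 1 library gave -0.13 to -0.04 for D29H, the smallest size without labelled-knockout replicate 1, -0.19 to -0.14 for R554Q, -0.16 (without Keap1 wild-type replicate 2) to -0.05 (without Keap1 wild-type replicate 1) between the empty-virus groups and -0.06 (without R554Q replicate 2) to 0.11 (without D29H replicate 2) between the Cre groups. Leaving out Stard4, Acly and Acss2, a sterol carrier and the suppliers of acetyl-CoA, the differences were -0.06, -0.10, -0.09 and -0.05. The SD between replicates of a library's branch median was 0.10 for the sterol genes and 0.07 for the fatty acid genes, beside which these differences were read as descriptions; no test was made over the members. Library by library, the sterol median of log2 CPM relative to the mean of the 3 Keap1 wild-type libraries was 0.24 to 0.33 in labelled knockout, 0.25 in D29H replicate 1 but 0.04 in D29H replicates 2 and 3, -0.21 to 0.07 in R554Q and -0.05 to 0.03 in Keap1 wild type. The fatty acid median was 0.28 to 0.33 in D29H, 0.33 to 0.54 in labelled knockout, 0.05 to 0.19 in R554Q and -0.03 to 0.03 in Keap1 wild type.

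The promoters of the genes called in the allele switches are shown because the sterol genes are known to share control elements, with those of Fasn, the next by adjusted p among members in the promoter table, and of Hmgcs1, chosen after the motif search. The RefSeq promoter table (GRCm38.p6, 250 bases before to 50 after a gene's start) held 24 of the 31 members. Capitals mark the core CCAAT of NF-Y on either strand and, in Hmgcs1, the letters TCACCCCAC of the sterol regulatory element; each sequence runs 5′ to 3′ along the gene's strand.
Idi1, chr13:8885356-8885655, plus strand: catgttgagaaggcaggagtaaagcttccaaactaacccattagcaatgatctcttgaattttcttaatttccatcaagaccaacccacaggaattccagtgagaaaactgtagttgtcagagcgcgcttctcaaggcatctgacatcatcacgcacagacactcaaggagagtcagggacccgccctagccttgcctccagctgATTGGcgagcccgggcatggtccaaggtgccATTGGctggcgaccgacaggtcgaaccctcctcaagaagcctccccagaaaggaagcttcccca
Sc5d, chr9:42264251-42264550, minus strand: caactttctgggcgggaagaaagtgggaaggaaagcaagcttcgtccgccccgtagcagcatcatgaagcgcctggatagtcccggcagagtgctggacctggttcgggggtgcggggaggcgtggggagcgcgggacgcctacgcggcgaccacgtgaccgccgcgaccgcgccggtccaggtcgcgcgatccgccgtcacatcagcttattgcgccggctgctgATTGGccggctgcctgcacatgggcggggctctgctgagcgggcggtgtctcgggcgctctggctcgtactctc
Cyp51, chr5:4104648-4104947, minus strand: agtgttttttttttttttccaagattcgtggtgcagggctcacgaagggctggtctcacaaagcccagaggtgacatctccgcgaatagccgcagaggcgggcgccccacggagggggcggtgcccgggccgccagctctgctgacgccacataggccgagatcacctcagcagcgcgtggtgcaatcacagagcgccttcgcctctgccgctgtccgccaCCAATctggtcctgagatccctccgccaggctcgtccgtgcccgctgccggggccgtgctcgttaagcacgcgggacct
Fasn, chr11:120824498-120824797, minus strand: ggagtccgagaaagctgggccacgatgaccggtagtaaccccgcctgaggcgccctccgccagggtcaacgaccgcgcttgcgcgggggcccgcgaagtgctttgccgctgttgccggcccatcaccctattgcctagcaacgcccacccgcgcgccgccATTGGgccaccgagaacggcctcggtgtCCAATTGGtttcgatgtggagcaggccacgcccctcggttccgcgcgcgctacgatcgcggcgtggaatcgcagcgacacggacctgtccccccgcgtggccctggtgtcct
Hmgcs1, chr13:119690101-119690400, plus strand: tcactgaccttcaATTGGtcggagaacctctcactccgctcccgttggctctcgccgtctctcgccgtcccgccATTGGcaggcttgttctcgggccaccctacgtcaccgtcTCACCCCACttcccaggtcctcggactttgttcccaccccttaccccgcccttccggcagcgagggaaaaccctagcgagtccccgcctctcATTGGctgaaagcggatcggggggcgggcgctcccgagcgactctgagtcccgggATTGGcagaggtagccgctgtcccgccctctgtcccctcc

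The motifs searched on both strands were CCAAT (NF-Y, a factor that works beside the SREBPs), TCACNCCAC (the sterol regulatory element) and TGACNNNGC (the core of the antioxidant response element, which NRF2 binds). CCAAT was found in 19 of the 24 members, 13 of 14 sterol genes, 3 of 6 fatty acid genes and 3 of 4 regulators, and in 41.1% of the 27025 genes of the table. In the Fasn promoter a forward and a reverse match overlap by 2 bases. The sterol regulatory element was found in Hmgcs1 alone among the members and in 1.44% of genes. TGACNNNGC was found in 5 members (Mvk, Pmvk, Hsd17b7, Dhcr7 and Acss2) and in 3781 of the 27025 genes. None of these 5 was called in either allele switch. A match is a string of letters in this window and says nothing of binding.

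Genes of 4 neighbouring pathway lists were also tested in the allele switches, where 3.47% of all genes rose and 1.28% fell with D29H and 3.77% rose and 2.40% fell with R554Q. Of 15 other fatty acid genes, Lpin1, a phosphatidate phosphatase, rose in both switches (0.47 with adjusted p = 0.0272 for D29H and 0.50 with adjusted p = 0.0117 for R554Q, in edgeR), and Elovl5, which elongates polyunsaturated fatty acids, and Acsl3, an acyl-CoA synthetase, fell with D29H (-0.39, adjusted p = 0.0260, and -0.43, adjusted p = 0.0461, in edgeR). Of 11 fatty acid oxidation genes tested, Cpt1c, a brain-type carnitine palmitoyltransferase homolog, rose in both (0.44, adjusted p = 0.0234, and 0.45, adjusted p = 0.00695, in edgeR). None of 8 other sterol and SREBP genes and none of 10 genes of sterol uptake and export passed in either switch, and no gene of these 4 lists passed in the test of the difference between the switches. With D29H the median was -0.17 over the other fatty acid genes and -0.12 over the oxidation genes, beside -0.15 over the sterol members. It was -0.09 over the other sterol and SREBP genes and 0.02 over the uptake and export genes. With R554Q the medians in the same order were -0.04, -0.02, -0.14 and 0.04.

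Lpin1 was at 18.1, 20.7 and 19.3 CPM in the D29H, 12.2, 14.4 and 15.4 in the labelled-knockout, 23.1, 19.1 and 20.8 in the R554Q and 16.2, 14.5 and 13.8 in the Keap1 wild-type libraries. Both Cre groups lay above both empty-virus groups. Without 1 library, edgeR kept Lpin1 in 2 of 6 fits for D29H and 3 of 6 for R554Q.

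Between the empty-virus groups, where 9.58% of all genes were higher and 10.1% lower, 2 of 8 other sterol and SREBP genes were higher (among them Erg28, 0.34) and 1 lower (Ggps1, -0.59). Of the uptake and export genes 2 of 10 were higher, among them Mylip, the ubiquitin ligase of lipoprotein receptors (0.50), and 1 was lower (Npc2, a lysosomal cholesterol carrier, -0.30). Of 15 other fatty acid genes 2 were higher, Acacb, the mitochondrial acetyl-CoA carboxylase, by 1.63, and Acsl3, by 0.47. Of 12 oxidation genes none was higher and 1 lower (Cpt1a, -0.31). The medians of these 4 lists lay between -0.11 and 0.08, below those of the 3 member groups. Acacb was at 5.68, 6.42 and 7.28 CPM in the D29H, 5.32, 4.44 and 4.45 in the labelled-knockout, 1.85, 2.18 and 2.27 in the R554Q and 1.80, 1.37 and 1.39 in the Keap1 wild-type libraries, so both Nrf2-allele groups were above both Keap1-allele groups.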

How the data were processed

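RNA-seq of 12 libraries was analysed from the authors' deposited tables, 1 for the Nrf2 allele and 1 for the Keap1 allele. Per the file headers they hold raw read counts per gene, FPKM per gene, group means of normalised counts (a signal) and the authors' own test results (log2 fold change, p-value, adjusted p). The submitters' processing notes name STAR, DESeq2 and the build mm10 without versions; the counting tool, annotation and use of strand are not given in the sources used here. The deposited FPKM matched values recomputed from count, gene length and library total to within 4.99e-10%. FPKM served only to compare levels between genes, and the signal entered no test.

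Counts were tested in R 4.3.3 with edgeR 4.0.16: genes kept by filterByExpr, TMM factors, the quasi-likelihood test (glmQLFit, glmQLFTest) and Benjamini-Hochberg adjustment over all genes tested, with calls at an adjusted p under 0.05. The SE is the size of the log2 fold change over the root of its F statistic. The allele switches used their own 6 libraries; the difference between them and the contrasts between alleles used 1 fit of all 12 over the genes in both tables. CPM are on 1 TMM scale over the 12 libraries. The test was checked on simulated counts with known changes. GC content came from GENCODE M21 transcripts (GRCm38) and was known for 99.0% of genes; the offsets are a lowess trend per library in GC content and then log length, with a span of 0.3. Replicate numbers were checked for pairing by correlating deviations from group means: same-numbered libraries gave -0.10, -0.07 and -0.02 in the Nrf2-allele and 0.03, -0.17 and -0.02 in the Keap1-allele cultures, so no block entered the test.

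The members and the other gene lists were chosen with earlier results of these data known. Values in every library are given for the regulators, Hmgcs1, Sqle, Dhcr7, Acly, Acaca, Fasn, Scd1 and each member called in a planned comparison. Of the other lists at most 5 called genes were to be named, by adjusted p; not all are named, and 1 gene of these lists is not reported here. Alternatives were DESeq2 1.42.0, scaling by RLE or upper quartile, the filter dropped or set to a mean count of at least 50, a replicate block, GC and length offsets, all 12 libraries in 1 fit and leaving out each library. Replicate pairs differed by more than sampling noise (chi-square over its degrees of freedom was 4.66 to 23.2), so each library was counted once.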

Additional observations from a re-analysis of the deposited data

Results flagged for a closer look

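Scd2 was flagged because its libraries separated completely and in opposite directions in the allele switches. All 3 D29H libraries lay below all 3 labelled-knockout libraries, and all 3 R554Q libraries lay above all 3 Keap1 wild-type libraries. Over all genes 12.9% showed the first separation and 13.3% the second, and the share showing both was not counted. The log2 fold changes were small, -0.09 for D29H (adjusted p = 0.684 in edgeR) and 0.11 for R554Q (adjusted p = 0.424 in edgeR). The D29H effect minus the R554Q effect was -0.19 on the log2 scale (SE 0.12), with an adjusted p of 0.572 in edgeR, so the difference did not pass its test.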

How the results depend on the processing

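The members had at least 69 reads in every library, and each group had 3 libraries. Leaving out 1 library at a time gave 82 to 2192 called genes for D29H and 0 to 3 lower members, and for R554Q 238 to 2872 genes, 0 to 3 higher and 0 to 6 lower members; the difference between the switches then had 0 to 26 called genes and a sterol median of -0.20 to 0.00, its smallest size (-0.0019) without R554Q replicate 3. Between the empty-virus groups the fatty acid median ran from 0.33 to 0.48, the highest without Keap1 wild-type replicate 2. With no filter on low counts 1195 genes were called for D29H, 1502 for R554Q (5 lower members) and 32 for the difference. No lower member was called for D29H with upper-quartile scaling, a mean count of at least 50 or the GC and length offsets, nor for R554Q with the offsets, which called 581 genes. DESeq2 called 1 higher member for R554Q (Fasn) and 71 genes for the difference. Upper-quartile scaling or a mean count of at least 50 left 1 gene called for the difference. The offsets raised the higher members of D29H against R554Q from 10 to 17. The cause of these changes was not tested.

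With a replicate block, although the numbers did not pair the samples, 484 genes and 1 lower member (Idi1) were called for R554Q and 2 genes for the difference; it moved no other count of calls by over 1.5 times. Over 155 pairs of a member and a comparison, 39 changed sign under at least 1 alternative, none of them called, 13 of the 32 called pairs lost the call under at least 1, and 17 others gained one. Fasn in R554Q was the largest of those that changed sign (0.24).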
